A study of Drosophila melanogaster with 4 samples.

Results

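The H3K36me3 clusters of chromosome arm 3L were examined in chromatin from heads of adult Drosophila melanogaster. They were taken from the authors' combined list as every enriched region placed on 3L, which gave 747 clusters of the 4026 on all sequences. The flies were Oregon-R, wild type, of the stage labelled Mixed Adult, and all 4 libraries share that strain, genotype and stage. In 2 libraries chromatin was precipitated with an antibody against H3K36me3, and the other 2 were input chromatin. Each precipitated library had its own cluster list beside the combined one, and the input libraries had none that was used here. A cluster is a stretch that the authors marked as enriched, with a first base, a last base and an enrichment score. The scale of that score was not stated, so scores are only set beside each other. All positions are on FlyBase release 5. The labels do not say whether the libraries came from separate collections of flies, so each SD with n = 2 describes how far these libraries differ, which may be technical.

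Trimethylation of lysine 36 of histone H3 (H3K36me3) is placed on nucleosomes by the methyltransferase Set2, which travels with elongating RNA polymerase II. It therefore marks the bodies of transcribed genes, more towards their 3′ ends than at their promoters. Repressed genes and most pericentric heterochromatin carry little of it. Heads hold neurons, glia, photoreceptors, fat body, muscle and cuticle-forming cells, and a list from whole heads mixes them. Fewer cells of a type with the mark and less of the mark per cell cannot be told apart in such chromatin. The arm 3L is the left arm of chromosome 3, an autosome, and in release 5 its positions run from the telomere towards the centromere. The assembled heterochromatin that belongs to it is kept as a separate sequence, 3LHet.

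Clusters covered 18.2% ± 0.0774 of 3L (SD, n = 2), with 18.2% in replicate 1 and 18.3% in replicate 2. Replicate 1 had 722 clusters on the arm and replicate 2 had 739. The combined list covered 19.1%, or 4.68 Mb of the 24543557 bases of the arm, at 30.4 clusters per Mb. A typical cluster was a few kilobases wide, with a combined-list median of 4.87 kb beside 4.80 kb for replicate 1 and 4.69 kb for replicate 2. The middle 50% of the combined clusters lay between 3.20 kb and 7.97 kb, the narrowest had 1009 bp and the widest 29.6 kb. Of the 747, 55 were narrower than 2 kb, 183 had at least 8 kb and 12 had at least 20 kb.

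The arm was unevenly marked, and the unevenness was alike in both libraries. In 25 windows of 1 Mb, the last of them shorter, the share of bases in clusters ran from 2.58% to 29.4% with a median of 18.7%, as means of the replicates. The replicates differed by a median of 0.247 percentage points per window and by 0.599 points at most, in the window from 2 to 3 Mb. The most covered windows were 8 to 9 Mb with 29.4% ± 0.405, 1 to 2 Mb with 29.4% ± 0.154 and 16 to 17 Mb with 26.6% ± 0.175 (SD, n = 2 each). The least covered were 24 Mb to the end with 2.58% ± 0.0415, 10 to 11 Mb with 5.45% ± 0.0265, 23 to 24 Mb with 6.08% ± 0.402, 18 to 19 Mb with 9.47% ± 0.371 and 22 to 23 Mb with 10.3% ± 0.240 (SD, n = 2 each). Thus 4 windows lay under 10%, and 3 of the 5 least covered were the last ones before the centromere. The spread between windows was far larger than that between replicates.

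The coverage of a window followed its number of clusters more closely than their mean width. Across the 25 windows, Spearman's rho of coverage was 0.953 with the number of clusters per Mb and 0.524 with their mean width. These windows share the same libraries and neighbouring windows are not independent, so both values are descriptions. In 4 equal parts of the arm, from the telomere to the centromere, coverage was 20.8% ± 0.0192, 19.2% ± 0.00619, 16.8% ± 0.0762 and 16.2% ± 0.259 (SD, n = 2 each). Median scores in the same parts were 1.82, 1.73, 1.63 and 1.58 in replicate 1 and 1.78, 1.74, 1.61 and 1.53 in replicate 2. In each library both measures were lowest in the part next to the centromere. In the combined list the median score was 1.5201 in the third part and 1.5230 in the last. The last part was itself uneven, as it also held the window from 21 to 22 Mb with 25.4% ± 0.217 (SD, n = 2).

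The place of the densest stretch depended on where windows began. With windows of 1 Mb started every 100 kb, the most covered ran from 19.5 to 20.5 Mb with 35.7% ± 0.256 (SD, n = 2), 35.5% in replicate 1 and 35.9% in replicate 2. Fixed windows divided this stretch into 19 to 20 Mb with 24.1% ± 0.152 and 20 to 21 Mb with 23.8% ± 0.199 (SD, n = 2 each), neither of them among the 3 highest. The least covered of the moving windows was 23.4 to 24.4 Mb with 2.11% ± 0.128 (SD, n = 2). Among moving windows that ended by 20 Mb, a limit that leaves out the sparse end of the arm, the least covered was 10 to 11 Mb. That window had been picked as sparse in these same lists, so its place here is no separate support.

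**Figure D1:**
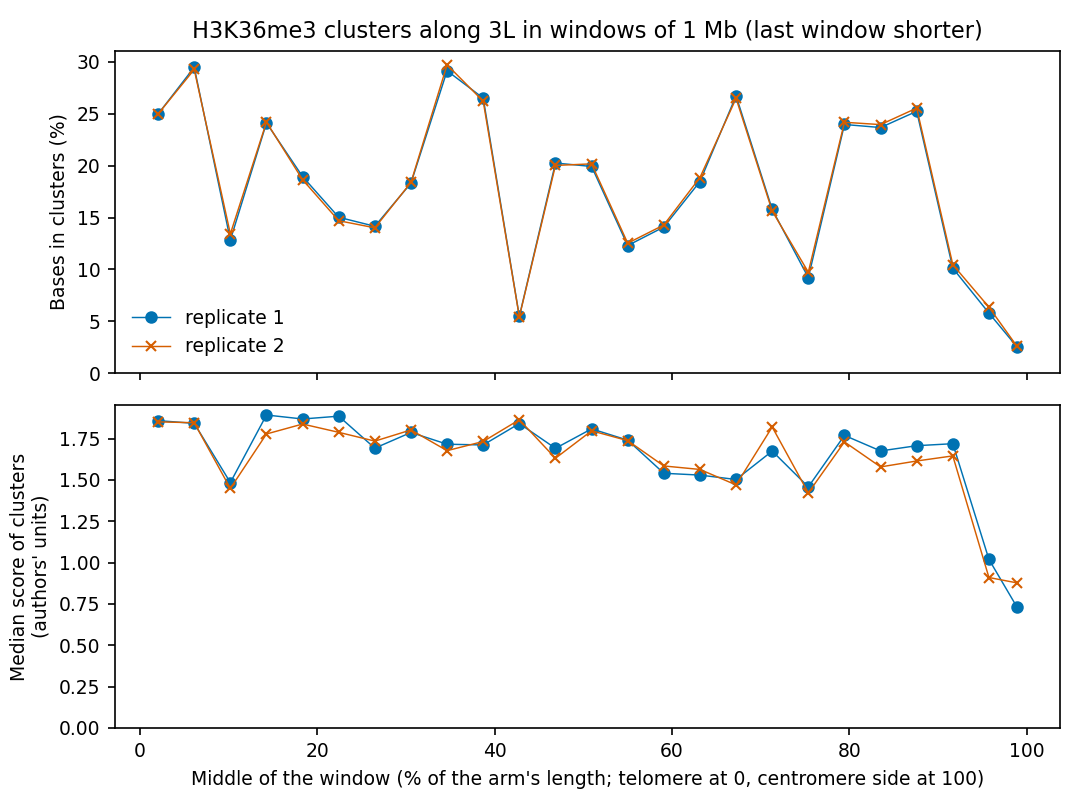
Share of bases in clusters (upper panel, percent) and median enrichment score of the clusters (lower panel, authors' units) in windows of 1 Mb along 3L, against the middle of each window as a percentage of the arm's length, with a line for each replicate. Coverage dips to 5.45% in the window at 42.8% of the arm while the score there stays at 1.84 and 1.86, and both coverage and score are low in the last windows.

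The sparse window from 10 to 11 Mb held few clusters, and those it held were wider and higher in score, by their medians, than those of the rest of the arm. None was narrower than 3 kb in any list. Each of the lists had 8 clusters there, at the same places. The rest of the arm outside this window and the last 1.54 Mb had 32.6 clusters per Mb in the combined list. The median cluster of the window had 5.71 kb in replicate 1 and 5.85 kb in replicate 2, against 4.88 kb and 4.79 kb in that rest of 3L. Median scores in the window were 1.84 and 1.86, against 1.71 and 1.69 in the rest. Its median score ranked first of the 25 windows in replicate 2 and in the combined list (1.82, beside 1.82 for the window from 4 to 5 Mb), whereas 5 windows had a higher one in replicate 1. No cluster of the window scored under 1 in any list, whereas 166 of the 717 combined clusters in the rest of 3L did (23.2%). Within a width class, however, the median score of the window was not higher. From 4 to 8 kb it was 1.78 and 1.74 in the replicates (5 clusters each), against 1.82 and 1.80 in the rest. From 8 to 16 kb it was 1.98 and 2.045 (3 clusters each), against 2.06 and 2.050. These width classes were chosen after the scores had been seen, and the differences were not tested.

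The 8 clusters of that window lay in 4 places separated by long gaps. The first, 3L 10210958 to 10218122, had scores of 1.62 in replicate 1 and 1.55 in replicate 2, with 243 kb free of clusters before it and 234 kb after it. The second, 10452184 to 10456726, scored 1.80 and 1.74 and was followed by 167 kb without a cluster. A group of 3 came next, at 10623954 to 10635348 with 2.20 and 2.21, at 10654020 to 10658300 with 1.78 and 1.62, and at 10679422 to 10687808 with 1.94 and 2.05. This group held the widest cluster of the window, of 11.4 kb, and a gap of 175 kb followed it.

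The last 3 clusters of the window stood close together near its end. They were 10863132 to 10874118 with 1.98 and 1.94, 10875438 to 10879700 with 1.88 and 1.95, and 10886180 to 10890758 with 1.66 and 1.79. The first and second of these were 1319 bp apart, and 139 kb without a cluster followed the third. Each of the 8 combined clusters overlapped a single cluster in each replicate, so that none was split or joined.

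The centromere side, from 23 Mb to the end of the arm, was also sparse, and its clusters were narrow and low in score. It held 22 clusters in each of the lists, or 14.3 per Mb, and these covered 4.65% in replicate 1 and 5.04% in replicate 2, a mean of 4.85% ± 0.275 (SD, n = 2). There the median cluster had 2.69 kb in replicate 1 and 2.84 kb in replicate 2, against 4.88 kb and 4.79 kb in the rest of 3L. The median score was 0.769 and 0.892, against 1.71 and 1.69 in the rest. Scores under 1 were found for 13 of 22 clusters in replicate 1 and 14 of 22 in replicate 2, against 120 of 692 (17.3%) and 134 of 709 (18.9%) in the rest. Read mappability and depth were not measured from these lists, and their part in these values was not tested.

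Low width accompanied low score across the whole arm, with a Spearman's rho of 0.748 in replicate 1 and 0.738 in replicate 2. Clusters of the centromere side still scored low at a given width. From 2 to 4 kb the median score was 0.763 (9 clusters) and 0.704 (8 clusters) in the replicates on the centromere side, against 1.22 and 1.21 in the rest of 3L. From 4 to 8 kb it was 1.47 (7 clusters) and 1.46 (8 clusters), against 1.82 and 1.80 in the rest. Below 2 kb no such gap appeared, with 0.574 and 0.511 over 6 clusters each, against 0.530 and 0.507. These values rest on few clusters, the width classes were chosen after the scores had been seen, and the differences were not tested.

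**Figure D2:**
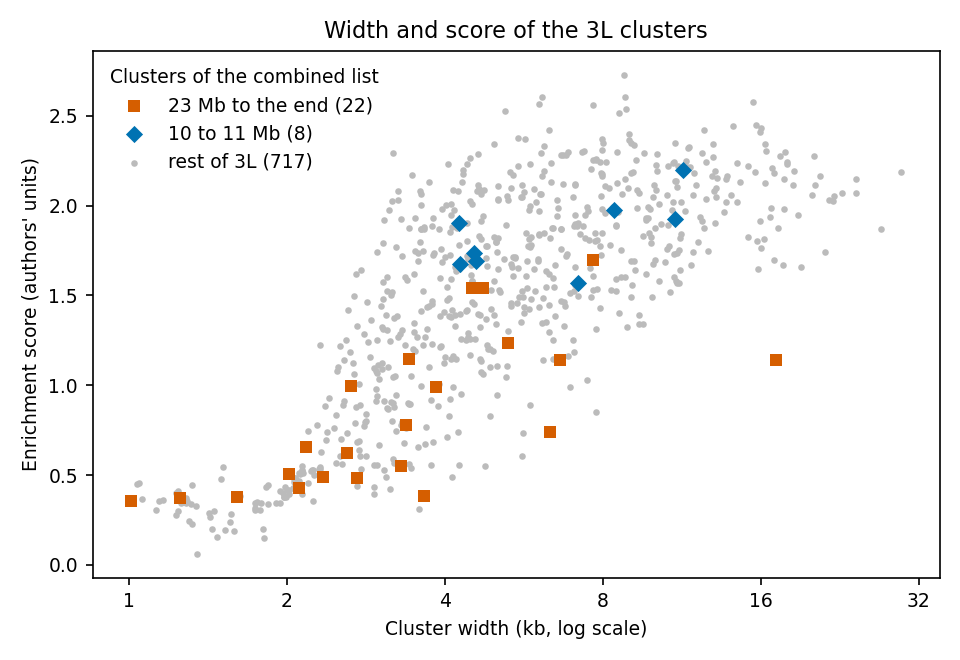
Enrichment score (authors' units) against width (kb, log scale) for the 747 combined-list clusters of 3L, each point a cluster, with those of 23 Mb to the end and of 10 to 11 Mb marked apart from the rest of the arm. The 8 clusters of 10 to 11 Mb score between 1.57 and 2.20, and 15 of the 22 clusters of the centromere side score under 1.

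The centromere-side clusters came in small groups with long empty stretches between them. Where a replicate divided a combined cluster, the score given is that of the piece with the largest overlap. At 23 Mb stood 2 weak clusters, 23007258 to 23008860, found in replicate 1 alone with a score of 0.535, and 23012094 to 23014812 with 0.571 and 0.568 in the replicates. After 69.8 kb came 23084612 to 23089112 with 1.56 and 1.58 and 23093782 to 23099064 with 1.31 and 1.33. These were among the higher scores of the region.

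The next group was a run of 5 clusters within 23.3 kb. It began with 23119478 to 23123120, which was a single cluster in replicate 1 (0.504) and was divided in replicate 2. There followed 23124478 to 23127124 with 1.11 and 0.910, 23130460 to 23133868 with 1.31 and 1.29, and 23138384 to 23141682 with 0.477 and 0.721. The last of the run, 23141770 to 23142778, was found in neither replicate, and at 1009 bp it was the narrowest cluster of the arm. The run's clusters had a median score of 0.549 in the combined list, the lowest of all runs on 3L.

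After 165 kb came the widest cluster of the centromere side, 23307426 to 23324494, of 17.1 kb. It had a score of 1.14, the lowest among the 37 combined clusters of 3L with at least 16 kb, of which the next lowest had 1.66. Each replicate divided it into 3 clusters. In replicate 1 these had 5.91, 5.07 and 1.81 kb with scores of 1.68, 0.931 and 0.530, and in replicate 2 they had 6.90, 6.73 and 2.91 kb with 1.60, 1.07 and 0.613. The 17.1 kb width thus belongs to the combined list, and both replicates place the strongest part of it on its telomere side.

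Close behind it lay 23326170 to 23328768 with 0.679 and 0.688 in the replicates and 23332230 to 23338852 with 1.14 and 1.29. A gap of 369 kb then led to 23708246 to 23712966 with 1.47 and 1.69. The strongest cluster of the region was 23738550 to 23746222, of 7.67 kb, with 1.77 and 1.73. Just before it were 23733874 to 23735982, found in replicate 2 alone with 0.592, and 23736010 to 23738354 with 0.636 and 0.518, which overlapped a pair of clusters in replicate 2.

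Beyond 24 Mb only 6 combined clusters were left. The pair 24022968 to 24026338 and 24027098 to 24030938 had scores of 0.775 and 0.877, and of 1.05 and 0.991, in replicates 1 and 2. The weak cluster 24069808 to 24071058, of 1251 bp, was found in neither replicate. The arm ended in 3 clusters close to its end, at 24531786 to 24538140 with 0.763 and 0.906, divided in replicate 1, at 24538560 to 24540574 with 0.620 and 0.503, and at 24542002 to 24544174 with 0.702 and 0.736. The last of them ran past the stated end of the arm, by 617 bp in the combined list, 287 bp in replicate 1 and 472 bp in replicate 2. Coverage was counted only up to the last base of the arm.

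The separate heterochromatin sequence of the arm, 3LHet, was covered less still, to 2.30% ± 0.139 (SD, n = 2) of its 2.56 Mb. Its 17 clusters in replicate 1 and 19 in replicate 2 had median scores of 0.804 and 0.822, close to the 0.769 and 0.892 of the centromere side of 3L. Both were far below the median scores of the whole arm, 1.70 and 1.67.

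The same 1.54 Mb were then measured at both ends of every long arm. On 3L the centromere side had 4.85% ± 0.275 in clusters, and the same length had 10.4% ± 0.118 on 2L, 13.0% ± 0.286 on X, 13.4% ± 0.143 on 2R and 29.7% ± 0.0908 on 3R (SD, n = 2 each). The median score there was 0.769 and 0.892 in the replicates on 3L, against 1.27 and 1.36 on 2L, 1.64 and 1.57 on X, 1.09 and 1.09 on 2R and 1.64 and 1.69 on 3R. At the telomere side 3L had 23.6% ± 0.123 in clusters, against 32.1% ± 0.0913 on 2R, 21.6% ± 0.0519 on 2L, 19.3% ± 0.266 on X and 14.7% ± 0.114 on 3R (SD, n = 2 each). In both replicates the centromere side of 3L had the lowest coverage and the lowest median score of the 10 ends. That region had been picked as sparse in these same lists, and the length of 1.54 Mb was set on 3L. Its low rank is therefore a description and no separate support. Every arm is read in the same 2 libraries, from which an exact two-sided sign-flip test cannot give a p below 0.5, so the differences between arms were not tested. How far each assembled arm reaches into the sequence next to the centromere was not measured either.

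**Figure D3:**
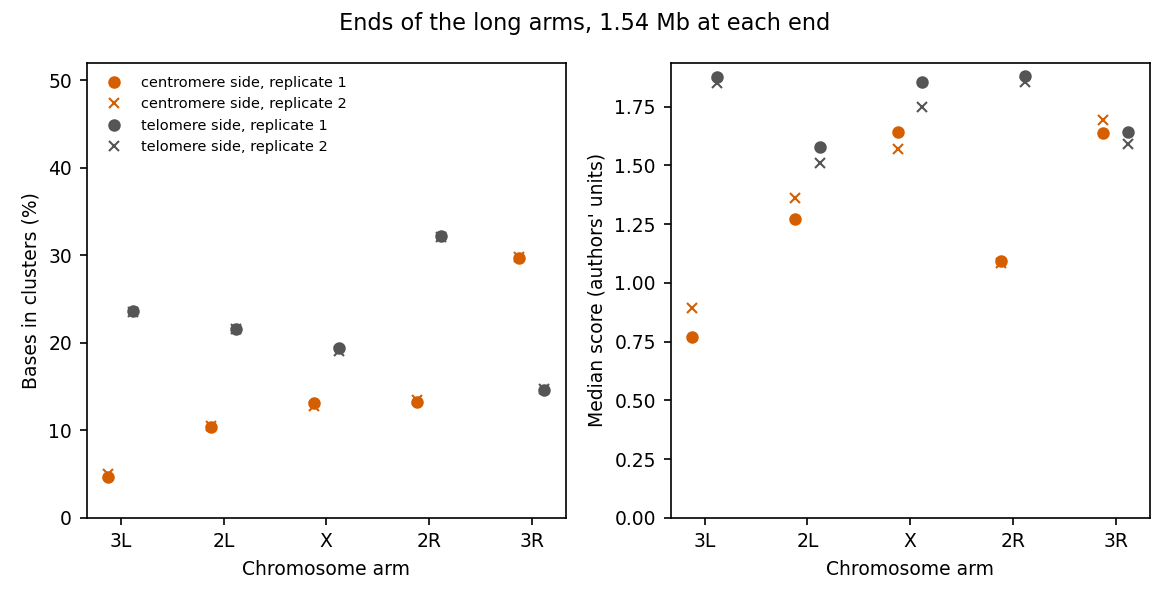
Share of bases in clusters (left, percent) and median enrichment score (right, authors' units) in 1.54 Mb at the centromere side and at the telomere side of each long arm, with a point for each replicate. On 3L the centromere side lies at 4.65% and 5.04% with median scores of 0.769 and 0.892, below the centromere sides of the other arms in both measures.

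Gaps between neighbouring clusters were of very unequal length, and a small number of long ones held about as much unmarked sequence as all the others. Of the 746 gaps between neighbours in the combined list, 341 (45.7%) had 5 kb or less. The replicates had 325 of 721 (45.1%) and 337 of 738 (45.7%) such gaps. Replicate 1 had a median gap of 6.51 kb and replicate 2 one of 6.43 kb. The combined list also had 6.43 kb, with a mean of 26.4 kb. Gaps of 100 kb or more were only 53 in each replicate and 51 in the combined list. They took up 42.4% of the arm by replicate 1, 41.5% by replicate 2 and 40.1% by the combined list. Of the sequence outside clusters they held 51.8% in replicate 1, 50.8% in replicate 2 and 49.6% in the list that combines them.

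**Figure D4:**
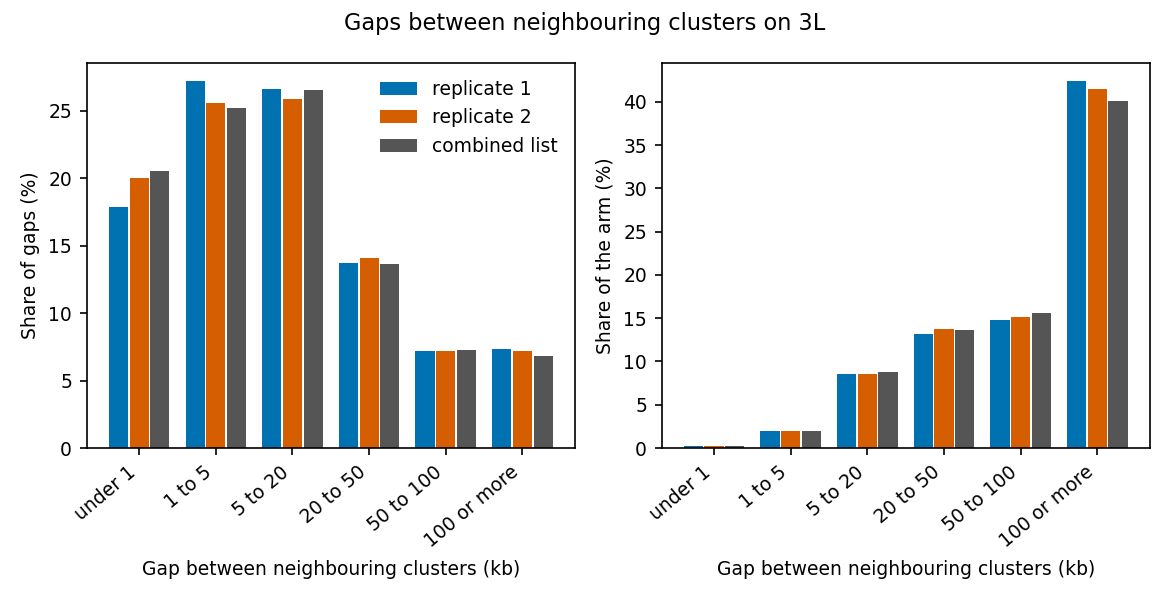
Gaps between neighbouring clusters of 3L by length class (kb), as a share of all gaps (left, percent) and as a share of the arm's length that lies in them (right, percent), with bars for each replicate and the combined list. Gaps of 100 kb or more are between 6.84% and 7.35% of all gaps in each list and hold between 40.1% and 42.4% of the arm.

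The 5 longest gaps of the combined list lay at 24071059 to 24531785 (461 kb), 22291851 to 22705737 (414 kb), 23338853 to 23708245 (369 kb), 13510665 to 13852851 (342 kb) and 18109737 to 18451243 (342 kb). No replicate had a cluster inside any of them. So 3 of the 5 lay beyond 22 Mb. The first and the fifth were limited by single weak clusters. In the replicates the first was 501 kb long, since the cluster of 1251 bp that cuts it short was in the combined list only. The fifth was 502 kb long in replicate 1, the longest gap of that list (18109680 to 18611264), because a cluster of 2.08 kb at 18451244 to 18453322 was found in replicate 2 (score 0.604) and in the combined list (0.473) and not in replicate 1. The other 3 had lengths of 414, 370 and 342 kb in both replicates.

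Runs were counted as 4 or more clusters in a row, each no more than 5 kb from the next. The combined list had 32 runs with 162 of the 747 clusters (21.7%), replicate 1 had 34 runs with 170 clusters (23.5%) and replicate 2 had 33 runs with 169 clusters (22.9%). Of the 32 runs, 24 overlapped a run in each replicate and 2 overlapped none. The 32 spanned 1.29 Mb, or 5.24% of the arm, and 84.1% of that span was in clusters. They held 23.1% of the length covered by combined clusters. Most runs were short, 12 with 4 clusters, 12 with 5, 6 with 6 and 1 each with 7 and 11, and their spans ran from 15.3 to 81.1 kb with a median of 37.4 kb.

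Runs began in 18 of the 25 windows. No run began in the windows from 2 to 3, 4 to 5, 10 to 11 and 12 to 13 Mb. The same held from 14 to 15 Mb, from 18 to 19 Mb and from 24 Mb to the end. The run at 13987334 to 14046740, of 5 clusters, began before 14 Mb and reached into the window from 14 to 15 Mb. Though no run began in them, the windows from 4 to 5 Mb and from 12 to 13 Mb were covered above the median window. Their coverage was 18.8% ± 0.213 and 20.0% ± 0.177 (SD, n = 2 each). Clusters in runs had a median width of 4.72 kb in replicate 1 and 4.75 kb in replicate 2, against 4.86 and 4.85 kb for clusters that had a neighbour within 5 kb without being in a run. Their median scores were 1.71 and 1.72, against 1.71 and 1.67. Clusters more than 20 kb from any neighbour, 60 in replicate 1 and 65 in replicate 2, had median scores of 1.58 and 1.48, and 25% and 29.2% of them scored under 1, against 18.4% and 20.03% of all clusters of the arm. These differences were not tested, since the clusters of a library are not replicates.

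The largest run was 3L 16054776 to 16135862, with 11 clusters in 81.1 kb. It held 10 clusters in replicate 1 and 11 in replicate 2, and 78.5% and 77.2% of its span was in clusters. Its centre was made of 3 strong clusters: 16084056 to 16090862 (6.81 kb; 2.32 in replicate 1 and 2.31 in replicate 2), 16092984 to 16105568 (12.6 kb; 2.05 in each) and 16106580 to 16121696 (15.1 kb; 2.22 and 2.24). Those at its telomere-side flank were weaker, as the first 3 had scores of 1.04, 1.25 and 1.00 in replicate 1 and of 1.19, 1.20 and 0.980 in replicate 2. The cluster of 2.24 kb at 16073064 to 16075304 was missing in replicate 1 and had a score of 0.639 in replicate 2.

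**Figure D5:**
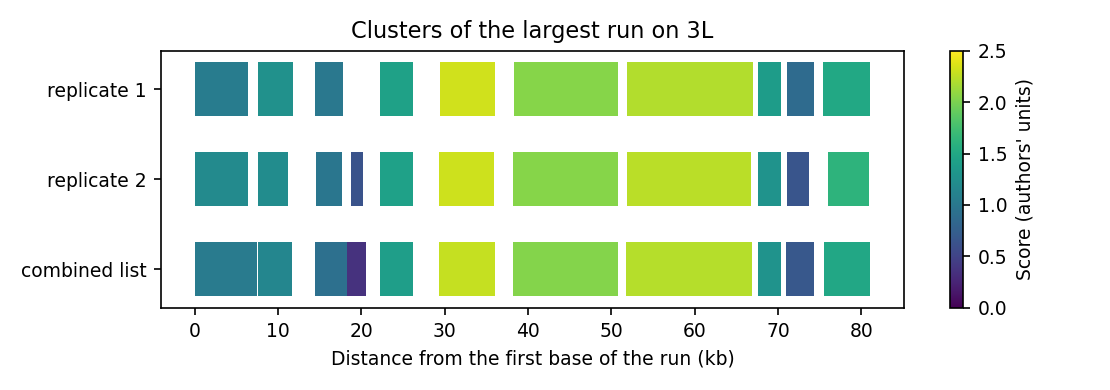
Clusters of the run with 11 members, drawn to scale against the distance from the first base of the run (kb), with a row for each replicate and for the combined list and colour for the score (authors' units). The 3 central clusters score between 2.04 and 2.32 in all lists, and the cluster 18.3 kb into the run is missing from replicate 1.

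The next runs by number of clusters, with ties ordered by span, were 7312876 to 7369516 (7 clusters, 56.6 kb), 5742186 to 5806568 (6 clusters, 64.4 kb), 21485702 to 21548070 (6 clusters, 62.4 kb) and 16567290 to 16622396 (6 clusters, 55.1 kb). Between 79.8% and 87.9% of each was in clusters in both replicates. Replicate 2 divided the run at 5742186 into 7 clusters, and both replicates divided the run at 21485702 into 7. The other 3 runs with 6 clusters were 8949224 to 8996944 (47.7 kb), 21606194 to 21636868 (30.7 kb) and 20287558 to 20316892 (29.3 kb). In the combined list the largest run had a median score of 1.28, and the 7 runs with 6 or 7 clusters had medians between 1.34 and 1.93.

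The 5 highest-scoring clusters of the arm were spread along it and were found as single clusters in both replicates. They were 6736662 to 6745448 with a score of 2.73 ± 0.0169, 8990826 to 8996944 with 2.61 ± 0.0131, 592792 to 601598 with 2.61 ± 0.00571, 16774108 to 16789578 with 2.59 ± 0.00225 and 20363172 to 20369214 with 2.59 ± 0.0594 (SD, n = 2 each). Their widths lay between 6.04 and 15.5 kb. The second of them closed a run of 6 clusters and was followed by 44.2 kb without one. The first had neighbours within 1043 bp before it and 209 bp after it.

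The 5 widest were 1289800 to 1319432 (29.6 kb), 2766662 to 2793730 (27.1 kb), 12509336 to 12533674 (24.3 kb), 14000260 to 14024526 (24.3 kb) and 12743492 to 12766380 (22.9 kb). Each was a single cluster in both replicates, unlike the widest one of the centromere side. Their scores were 2.19 ± 0.0493, 1.87 ± 0.0244, 2.17 ± 0.0358, 2.08 ± 0.0579 and 2.07 ± 0.0202 in the order given (SD, n = 2 each). None of the 5 widest was among the 5 highest in score. The second widest lay at the edge of a gap of 161 kb. Clusters are given by position alone, as gene models of release 5 were not used here.

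The members were then checked against the replicate lists. Of the 747, 689 (92.2%) overlapped a cluster in both replicates by at least 1 bp. A further 8 did so only in replicate 1 and 21 only in replicate 2, and 29 were found in neither. Every 3L cluster of each replicate was found in the combined list. The 29 in neither had a median width of 1.28 kb and a median score of 0.346, and 0.482 at most. Their summed width was 0.826% of that of all 747. Of the 22 clusters on the centromere side, 18 were in both replicates, and in the window from 10 to 11 Mb all 8 were.

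Between the replicates, 714 of 722 replicate 1 clusters (98.9%) met a replicate 2 cluster on 3L, and 718 of 739 (97.2%) did so the other way. The shared bases were 4.37 Mb, which is 98.0% of the replicate 1 length and 97.4% of the replicate 2 length. The edges of 674 one-to-one pairs lay close, with a median distance of 56 bp at the start and 61 bp at the end. Scores of 714 matched clusters correlated with a Pearson's r of 0.975 and a Spearman's rho of 0.973. The points are clusters of the same libraries, so no p is given. Matched scores differed by a median of 0.0689 and by 1.36 at most.

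Clusters found in 1 replicate only were weak, with combined-list scores of 0.557 at most. The 5 with the highest combined-list scores, given here with the score in the replicate that had them, were 7648520 to 7651492 (replicate 1, score 0.747), 2102124 to 2105056 (replicate 2, 0.629), 9731066 to 9732574 (replicate 1, 0.684), 7909464 to 7910960 (replicate 2, 0.645) and 9605046 to 9607108 (replicate 1, 0.733). Their widths were between 1497 and 2973 bp, and 3 of the 5 had a neighbour within 1 kb.

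The combined list was not a plain union of the replicate lists. All 747 of its starts and all 747 of its ends were even numbers, whereas 408 of 722 starts in replicate 1 and 357 of 739 in replicate 2 were even. Its clusters were wider by a median of 100 bp than their partners in replicate 1 and by 113 bp than those in replicate 2, and 619 of 670 and 653 of 683 pairs were wider in it. It had 18 clusters narrower than 1300 bp, and the replicates had 0. Coverage from the combined list, 19.1%, is therefore not directly comparable with the 18.2% and 18.3% of the replicates.

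Set beside the other long arms, 3L had clusters of lower median width. Median cluster width on 3L was 4.80 kb in replicate 1 and 4.69 kb in replicate 2, against 5.06 and 4.95 kb on 2L, 5.01 and 4.89 kb on 2R, 5.16 and 5.18 kb on 3R and 4.88 and 4.96 kb on X, so the values of 3L lay below those of every other arm. The share of clusters in runs was 23.2% ± 0.479 on 3L, against 23.3% ± 0.00274 on 2L, 28.6% ± 1.47 on 2R, 27.8% ± 0.0225 on 3R and 33.97% ± 2.01 on X (SD, n = 2 each). The share was lowest on 3L by this mean, but the values of 3L and 2L did not differ beyond the spread between replicates. Gaps of 100 kb or more held 42.4% and 41.5% of 3L, against 46.5% and 45.0% of 2L, 29.6% and 29.2% of 2R, 38.9% and 38.5% of 3R and 43.2% and 42.9% of X. These arms come from the same 2 libraries and were not tested against each other.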

How the data were processed

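H3K36me3 was assayed by ChIP-seq in head nuclei, with 2 precipitated and 2 input libraries. The authors deposited cluster lists as positions with an enrichment score, 1 list per precipitated library and 1 combined list, and per the file headers positions are on FlyBase release 5. The submitters' processing notes name the aligner Bowtie (version 0.12.7) without saying what it did. How clusters were found, at which threshold and how replicates were combined is not stated. Read depth is unknown, so no counting interval was computed. The gene table used here is on release 6, and no cluster was assigned to a gene.

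Rows on 3L marked as enriched (the lists hold 1 other row, marked as depleted, which was left out) were read with Python 3.11.15 and numpy 2.4.6, and correlations used scipy 1.17.1. Width is the last base minus the first plus 1. Coverage is the share of bases in clusters, as mean and SD of the replicate lists. Counts, widths, gaps and runs are of the combined list unless a replicate is named, and a cluster belongs to the region its first base lies in. Medians per window use cluster midpoints. The last window was kept because it had over 50% of the full 1 Mb. No significance test was run, as each value has 2 libraries. The functions were checked on artificial lists with known answers. Members and definitions (window, run of 4 or more within 5 kb, regions) were chosen with earlier results of these data known, and the score limit of 1 was set after the scores had been seen. Named items were, for the combined list, the 5 highest-scoring and 5 widest clusters, the 5 longest gaps, the 5 largest runs, the 3 most and 5 least covered windows, all clusters of both sparse regions and the 5 highest-scoring clusters of a single replicate. Others named beside them, such as the members of the largest run, were chosen after their values were seen. Alternatives were the list, a score limit, the overlap, the gap and size of a run, joining of clusters and window placement.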

Additional observations from a re-analysis of the deposited data

Results flagged for a closer look

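Data outside the main count of the arm carried clusters, with no input list to set beside them. The heterochromatin sequence 3LHet held 22 clusters in the combined list, 17 in replicate 1 and 19 in replicate 2. The highest score among them was 1.95 in replicate 1 and 2.01 in replicate 2.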

How the results depend on the processing

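No paired analysis was possible because the input libraries have no list used here, so no groups share replicate numbers in a comparison. Depth is unknown, so how far it limits weak clusters was not measured. A value was taken as moved when it changed by more than 1 SD of the replicates (for the correlation by more than 0.01, and for counts by more than 1.5 times). Of the alternatives, 21 values did not move and 39 did. For coverage given as the replicate mean at a fixed place, leaving out 1 replicate always shifts the value by less than 1 SD. Those values could not count as moved, so they say nothing about stability. The combined list in place of the replicate mean, and all alternatives for the 2 median scores, were chosen after seeing the data. Causes were not tested.

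Leaving out either replicate gave a median width of 4.69 to 4.80 kb, a median gap of 6.43 to 6.51 kb, 22.9% to 23.5% of clusters in runs, and median scores of 0.769 to 0.892 from 23 Mb to the end and 1.84 to 1.86 in the window from 10 to 11 Mb.

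With the upper 50% of the combined list by score there were 380 clusters on 3L, covering 13.4%, with a median width of 7.50 kb, a median gap of 16.8 kb, 4 runs and 4.74% of clusters in runs. Coverage was then 4.84% at 10 to 11 Mb, 0.497% from 23 Mb to the end and 26.0% in the most covered window. With this limit 1 of 22 clusters was left from 23 Mb on and 7 of 8 at 10 to 11 Mb, which became only the third least covered window.

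Combined clusters found in both replicates covered 18.7%, with a median width of 5.27 kb, a median gap of 7.75 kb and 19.01% in runs. Coverage with them was 5.56% at 10 to 11 Mb, 5.42% from 23 Mb on, with a median score there of 0.885, and 30.0% in the most covered window. The whole combined list gave 19.1%, 5.56%, 5.81% and 30.6% for the arm, 10 to 11 Mb, 23 Mb to the end and the most covered window.

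Joining clusters up to 1000 bp apart gave a median width of 6.06 kb and a median gap of 11.1 kb. Runs depended on their definition: a gap of 2 kb gave 13 runs with 8.17% of clusters, 10 kb gave 57 with 41.1%, and runs of 3 or more gave 91 with 45.4%. Moving windows raised the highest coverage to 35.7%. With reciprocal overlap of 50%, 90.4% of clusters were in both replicates, and 89.5% with the upper 50% of each list.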
